A study of Triticum aestivum and Triticum monococcum subsp. aegilopoides x Triticum urartu with 8 samples.

Results

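The transcripts described here are 196 array probes whose signal was higher in necrotic than in wild-type hybrids of both hexaploid and diploid wheat. They were chosen by their measured values: a probe was taken when it was well above background on both type I and both type IV arrays, carried no outlier flag, and had a mean log2 level at least 1 higher in type I necrosis than in the hexaploid wild type and at least 2 higher in type IV necrosis than in the diploid wild type. The 196 probes are 0.518% of the 37826 transcript probes on the array and 0.873% of the 22460 probes that were bright and unflagged enough to be eligible. Because the differences between necrosis and wild type selected these probes, those differences are given as a description, without a test.

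Hybrid necrosis is the yellowing and death of leaf tissue in a hybrid whose parents are healthy. It arises when alleles brought together by the cross act badly with each other, and in many plants the alleles belong to the machinery that recognises pathogens, so that a defence response with local cell death runs without infection. In wheat several types of necrosis are told apart by the cross and the symptoms, and they act as a barrier between lineages.

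The samples were first leaves of untreated seedlings grown for 1 week at 23 °C, and their total RNA, labelled with Cy3, was read on 8 one-colour Agilent oligonucleotide arrays. There were 4 groups of 2 arrays. The hexaploid groups were a wild-type hybrid of common wheat (Triticum aestivum) and a hybrid with type I necrosis. The diploid groups were a wild-type hybrid and a hybrid with type IV necrosis, both from Triticum monococcum subsp. aegilopoides crossed with Triticum urartu. The parental lines of the hybrids, and whether separate plants were used for the arrays of 1 group, are not given in the sources used here, although the design text speaks of 2 independent experiments. Necrotic and wild-type arrays of a wheat therefore differ in hybrid as well as in necrosis, and these cannot be told apart. Each wheat had a slide of its own, which cannot be told apart from the wheat. Levels are therefore compared only within a wheat. On the hexaploid slide, type I was at positions 1 and 2 and the wild type at 3 and 4. On the diploid slide the wild type was at positions 1 and 2 and type IV at 3 and 4, so position moved with necrosis in opposite order on the 2 slides. The part of position in the differences was not tested. These are whole-leaf RNA samples, in which a change in the number of cells of a type and a change of RNA per cell cannot be told apart.

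The level of a probe on an array is given below as log2 of its processed intensity minus that array's 75th percentile over transcript probes, so that a probe at the 75th percentile has the level 0. The type I difference is the mean level in type I minus that in the hexaploid wild type. The type IV difference is the mean level in type IV minus that in the diploid wild type. The array's 75th percentile lay between 1681 and 2409 intensity units on the hexaploid arrays and between 558 and 1509 on the diploid arrays. Between 27437 and 28765 probes were well above background on the hexaploid arrays and between 23626 and 24556 on the diploid arrays. No transcript spot was saturated.

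The scanner files name probes by clone or contig codes, and neither they nor the reference table tie a code to a gene, so no member is given a gene name or a role here. No sequence of the probes was among the files used. Only 6 probes on the array carry a gene's name, and all are named for cold or dehydration response genes (RD29A, RD29B, cor47, Wcor15, DREB2A and DREB2B). None of the 6 is a member, and 4 were above background on no array. RD29B, named for a gene induced by drought and abscisic acid in Arabidopsis, was above background on each of the 8 arrays, with a type I difference of -0.15 and a type IV difference of -0.89. The defence, redox, hormone, cell death and photosynthesis lists, and the leaf marker genes that would check the tissue label, could not be matched to any probe. The results are therefore ordered by the size and the form of the difference.

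The members differed widely in size of difference. The type I difference had a median of 1.49, which is 2.82-fold, with quartiles of 1.20 and 1.97 and a highest value of 4.88. The type IV difference had a median of 2.72, which is 6.60-fold, with quartiles of 2.30 and 3.38 and a highest value of 11.50. Over all eligible probes the medians were 0.08 and 0.01. Of the eligible probes, 3.52% had a type I difference of at least 1 and 4.89% a type IV difference of at least 2. The members make up 24.8% of the first list of 790 probes and 17.9% of the second list of 1098 probes.

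**Figure D1:**
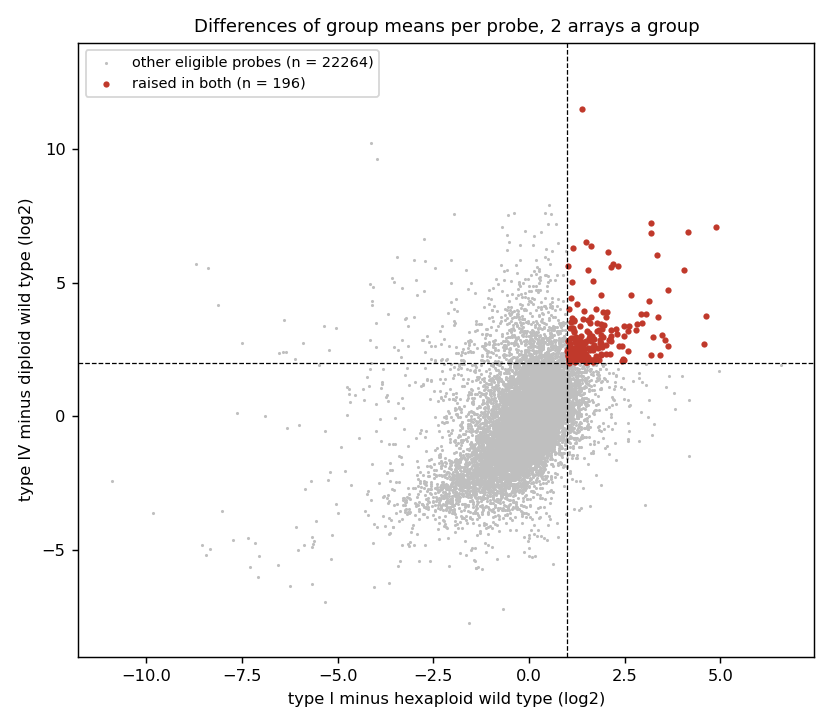
Each point is 1 of the eligible probes, placed by its type I difference (horizontal axis, log2) and its type IV difference (vertical axis, log2), each from 2 arrays a group. The 196 members (red) fill the corner beyond the dashed thresholds of 1 and 2, most lie close to the thresholds, and 1 stands alone at a type IV difference of 11.50.

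Both thresholds fell in a dense range of values. Just inside the type I threshold were MUGEST2003_23lib_Contig164_591, wheat0130Contig1986 and whfl35d19, with type I differences of 1.00, 1.01 and 1.01. Just outside it were wheat0130Contig1173, wheat0130Contig254 and whsd2n19_626, at 1.00, 0.99 and 0.99. Just inside the type IV threshold, whfl_allContig1618, wheat0130Contig7244 and wheat0130Contig7588 had type IV differences of 2.01, 2.03 and 2.03. MUGEST2003_23lib_Contig12124_379, MUGEST2003_23lib_Contig13853_329 and whr10f03 stood just outside it at 2.00, 1.99 and 1.98. The probes on either side of a threshold thus differed by less than the spread between arrays of a group.

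Large differences in both necrosis types together were rare. A type I difference of at least 3 was found for 18 members, against 0.151% of the eligible probes (34 probes). A type IV difference of at least 3 was found for 71 members, against 1.93% of the eligible probes (434 probes). Since both differences are what the members were selected on, nothing is read from these shares. The 12 members for which both differences were at least 3 are those named next, grouped by the form of the difference.

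The probe rwhkv9g07_465 had the largest type I difference among the members and the largest smaller value of the 2 differences. Hexaploid wild-type levels were -2.19 and -2.29, and the type I arrays gave 2.66 and 2.62. The diploid wild type read -5.31 and -5.28, not well above background, and the type IV arrays gave 1.43 and 2.19. The groups did not overlap in either wheat, and in both the probe passed from below to above the 75th percentile. The type I difference of 4.88 is 29.4-fold. Type IV was at least 122-fold brighter, measured against the lowest signal well above background where the wild-type signal lay under it. Such bounds, here and below, hold only for the processed intensities used. With normexp background correction, here and below with 50 added to each intensity, the type IV difference of this probe fell from 7.11 to 4.41.

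MUG004H05R990615 had the second largest smaller value and was above background in every group. Its hexaploid levels were -4.86 and -4.92 without necrosis and -0.73 and -0.73 in type I. In the diploid hybrids it read -1.45 and -1.54 in the wild type and 5.13 and 5.68 in type IV, so that it crossed the 75th percentile in the diploid hybrids. In the hexaploid hybrids it stayed below it. Its differences were 4.16 in type I and 6.90 in type IV.

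MUG021E11R990620 had the same form. Its hexaploid levels were -3.51 and -3.40 in the wild type and -0.34 and -0.23 in type I. Its diploid levels were -0.33 and -0.46 in the wild type and 6.22 and 6.73 in type IV. It too crossed the 75th percentile in the diploid hybrids and stayed below it in the hexaploid ones, with differences of 3.17 in type I and 6.87 in type IV.

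For wheat0130Contig6325 the 2 type IV arrays stood furthest apart of all members. The hexaploid levels were -2.73 and -2.80 in the wild type and 1.28 and 1.28 in type I. The diploid levels were -4.0 and -3.44 in the wild type, against 2.85 on type IV array 1 and 0.71 on type IV array 2. The type I difference was 4.04, and the type IV difference of 5.50 rests on arrays with an SD of 1.51 between them (n = 2), although both lay above both wild-type arrays.

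In 4 further probes of the 12, 1 of the wild types was not well above background on either array. In the hexaploid wild type wheat0130Contig11892 read -6.55 and -6.81 and was not well above background, against -3.37 and -3.25 in type I, at least 7.42-fold brighter. The diploid levels of wheat0130Contig11892 were -4.65 and -4.92 in the wild type and -1.10 and -0.98 in type IV. MUGEST2003_23lib_Contig2929_83 was likewise not well above background in the hexaploid wild type (-6.60 and -6.49) and reached -3.23 and -3.18 in type I, at least 7.97-fold brighter. The type IV arrays gave 1.11 and 1.09 against -5.0 and -4.92 in the diploid wild type, a difference of 6.06. In wheat0130Contig6657 the dim group was the diploid wild type (-5.84 and -5.53, not well above background), with -0.69 and -2.06 in type IV, at least 13.4-fold brighter. The hexaploid levels of wheat0130Contig6657 were -2.70 and -2.59 in the wild type and 0.46 and 0.51 in type I. For MUGEST2003_23lib_Contig13877_801 the diploid wild type read -7.17 and -7.38, and type IV, at -4.60 and -3.82, was itself dim. The bound there was only 1.88-fold, and with normexp background correction the sign of its type IV difference turned (-0.11). Its hexaploid levels, -2.64 and -2.64 in the wild type and 0.87 and 0.81 in type I, gave a difference of 3.48.

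The remaining 4 of the 12 were above background on at least 1 array of each wild type. MUGEST2003_23lib_Contig8413_514 had -1.99 and -1.99 in the hexaploid wild type, 2.63 and 2.62 in type I, -3.33 and -2.91 in the diploid wild type and, with type IV necrosis, 0.79 and 0.51. It was one of few members whose difference was larger in type I (4.61) than in type IV (3.77). The levels of wheat0130Contig9685 were -0.98 and -0.99 in the hexaploid wild type, 2.65 and 2.63 in type I, -2.52 and -2.39 in the diploid wild type and, with type IV necrosis, 1.88 and 2.68. Those of wheat0130Contig2260 were -5.47 and -5.63, then -2.44 and -2.31, then -5.50 and -4.74 (well above background on 1 of these 2 diploid wild-type arrays), and 1.72 and 2.54, in the same order of groups. With a type IV difference of 7.26, wheat0130Contig2260 was second among the members on that measure. MUGEST2003_23lib_Contig9578_175 had -0.47 and -0.46 in the hexaploid wild type and -1.38 and -1.30 in the diploid wild type, against 2.58 and 2.60 in type I and 2.62 and 2.38 in type IV.

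**Figure D2:**
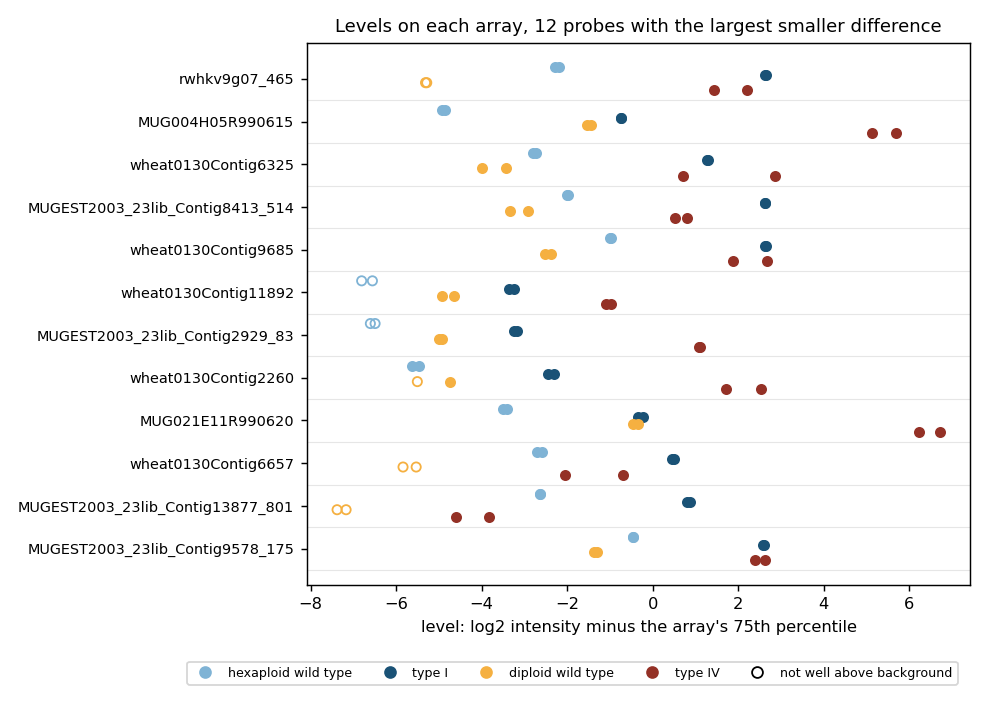
Levels on each of the 8 arrays (log2 intensity minus the array's 75th percentile) for the 12 members with the largest smaller value of the 2 differences. Each dot is 1 array, open where the spot was not well above background. Type I dots nearly coincide, whereas the 2 type IV dots are often apart, most of all for wheat0130Contig6325 at 2.85 and 0.71.

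Across these 12 probes the SD between the 2 type I arrays ran from 0.0021 to 0.093, and that between the 2 type IV arrays from 0.011 to 1.51. The gap from wild type to necrosis was larger than the gap between arrays of 1 group in each of them. The 12 were picked for large differences, which favours such a gap, so nothing is read from it.

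The largest type IV difference of all belonged to MUGEST2003_23lib_Contig19505_653. In the hexaploid hybrids the probe lay above the 75th percentile in the wild type, at 2.35 and 2.27, and reached 3.70 and 3.71 in type I, a difference of 1.39. In the diploid wild type it read -7.39 and -7.50, not well above background, and in type IV 3.74 and 4.38. The type IV signal was at least 580-fold above the wild type.

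The rule asked for at least 1 in type I and at least 2 in type IV, which favours members with the larger difference in type IV. The type I difference was the larger of the 2 in 12 members (6.12%), against 56.2% of the eligible probes. Beside MUGEST2003_23lib_Contig8413_514 the largest of these 12 members was rwhyf11h18, at 4.58 in type I and 2.71 in type IV. This probe was dim throughout: it read -8.75 and -8.27 in the hexaploid wild type and -7.37 and -6.93 in the diploid one, neither well above background, against -3.89 and -3.97 in type I and -4.17 and -4.70 in type IV. Against the lowest signal well above background it was at least 4.83-fold brighter in type I and at least 1.60-fold brighter in type IV, and its type IV difference turned to -0.13 with normexp background correction. Next were whsh_allContig257, at 3.64 and 2.62, and MUGEST2003_23lib_Contig22032_536, at 3.55 and 2.86. In 75 members (38.3%) the type IV difference was at least 2 times the type I difference on the log2 scale. Of the eligible probes, whose differences can be negative, 42% met this. Given the unequal thresholds, nothing is read from these counts. Across the members the 2 differences correlated with Pearson's r = 0.35 and Spearman's rho = 0.33 (196 probes), and across all eligible probes with r = 0.43 and rho = 0.49. Both sets of probes share the same 8 arrays, and the thresholds truncate the range among members.

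All 196 members had both type I arrays above both hexaploid wild-type arrays, and all had both type IV arrays above both diploid wild-type arrays. Of the eligible probes 50.2% did so in type I and 42.3% in type IV. With limma, fitted across all probes tested and adjusted by Benjamini-Hochberg to 0.05, 185 members were called higher in type I, where 22.9% of the 28520 probes tested were called higher. In type IV 194 members were called higher, where 33.9% of 24631 probes were. The rule used these contrasts, so nothing about the members is read from these counts. The 2 members not called in type IV were MUGEST2003_23lib_Contig16203_353 and MUG013A01R990617, named after their values were seen.

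These 2 owe their place among the members to spots on diploid wild-type array 2. MUG013A01R990617 had a level of 2.00 on diploid wild-type array 1 and -7.29 on array 2, against 3.06 and 2.92 in type IV. MUGEST2003_23lib_Contig16203_353 had -0.40 on diploid wild-type array 1 and -7.28 on array 2, against 0.89 and 1.57 in type IV. Measured against array 1 alone, their type IV differences of 5.64 and 5.07 became 0.99 and 1.63, both under the threshold of 2. The 2 spots lie close together, at row 196, column 76 and at row 193, column 77 of 532 rows and 85 columns. In the area of rows 180 to 220 from column 70 on, which was drawn after seeing these spots and holds 564 transcript spots, 45 were well above background on array 1 and at least 4 lower on array 2. Over the whole of array 2 there were 99 such spots, and the reverse (bright on array 2 and at least 4 lower on array 1) was seen for 44. No other member had a gap of 4 or more between the arrays of a group. Without diploid wild-type array 2 the rule gave 191 probes, 184 of them among the 196.

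The levels themselves show where the members stood among all probes. In the hexaploid wild type their median level was -2.38 and in type I -0.64. In the diploid wild type it was -3.12 and in type IV 0.07. The eligible probes as a whole had medians of -0.76, -0.75, -0.64 and -0.68 in the same order of groups, so the members began below the middle of the eligible probes and ended near or above it. The mean level exceeded the array's 75th percentile for 49 members in the hexaploid wild type and 85 (43.4%) in type I. Of the eligible probes 39.4% and 39.6% did so, so in type I the members' share was close to that of all eligible probes. In the diploid wild type 32 members lay above it and in type IV 100 (51%), against 41.4% and 41.3% of the eligible probes. Both necrosis means lay above it in 71 members (36.2%, against 32.8%). It was crossed in both wheats by 22 members (11.2%, against 0.766%). A low level in wild type and such a crossing are favoured by a rule that asks for a large difference.

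**Figure D3:**
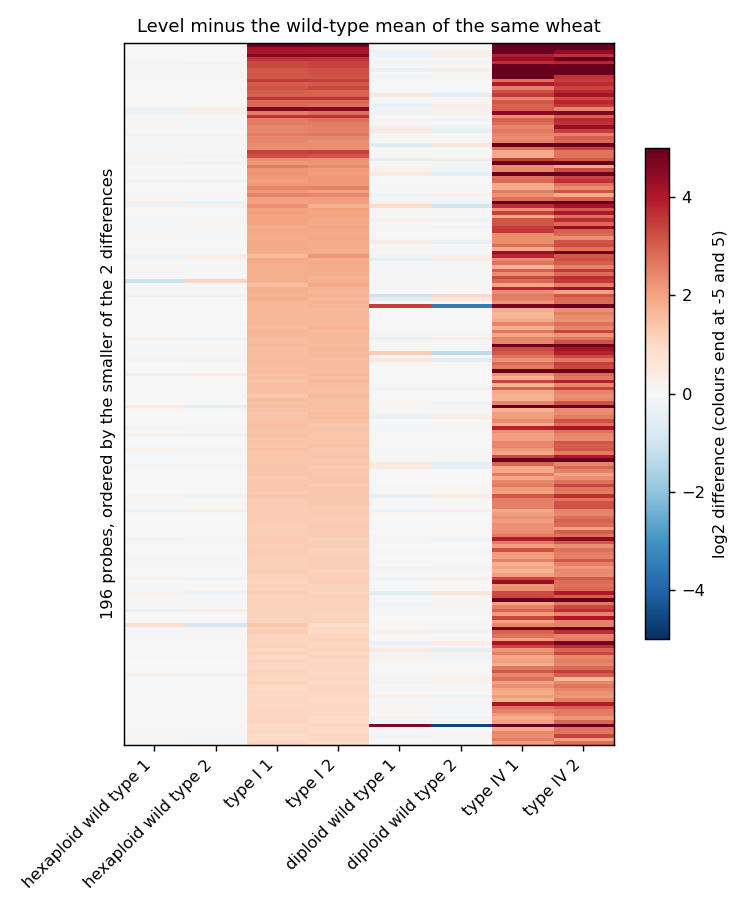
Each row is 1 of the 196 members, ordered by the smaller of its 2 differences, and each column is 1 array. Colour gives the level minus the wild-type mean of the same wheat (log2, colours end at -5 and 5). The type I columns are alike, the type IV columns are less so, and 2 rows stand out in the diploid wild type, which are the members with the gap on array 2.

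Many members were too dim in a wild type for their fold to be measured. Of the 196, 125 (63.8%) were well above background on all 8 arrays, against 93.8% of the eligible probes. The hexaploid wild type had 22 members (11.2%) above background on neither array and 7 (3.57%) on 1 array, against 0.499% and 1.06% of the eligible probes. The diploid wild type had 46 members (23.5%) on neither array and 18 (9.18%) on 1 array, against 3.07% and 2.26%. In 10 members (5.1%, against 0.187%) no wild-type array at all was above background. The rule asked for bright signals only on necrosis arrays and for a rise, which favours dim wild types, so nothing is read from these shares. Where only a lower bound of the fold could be given, the bound was under 2-fold for 10 of the 22 members in type I and under 4-fold for 25 of the 46 in type IV. Those members met the rule through signals below the dimmest spot that counts as well above background.

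The 5 members with the highest signal in both wild types are given next for their levels, since their differences were fixed by the rule. A ranking of probe signals is not one of transcript abundance. The first was wheat0130Contig15857, with hexaploid levels of 4.70 and 4.77 in the wild type and 6.16 and 6.14 in type I. In the diploid hybrids it had 4.32 and 4.28 in the wild type and 6.36 and 6.68 in type IV. The differences were 1.42 and 2.22, and no arrays of opposite groups overlapped. MUGEST2003_23lib_Contig17709_901 was the second, at 3.22 and 3.28 in the hexaploid wild type, 4.69 and 4.87 in type I, 2.91 and 2.83 in the diploid wild type and, with type IV necrosis, 6.25 and 6.75. Its type IV difference was 3.63. The other 3 were wheat0130Contig12123 (1.36 in type I and 2.22 in type IV), MUGEST2003_23lib_Contig2406_665 (1.49 and 2.05) and wheat0130Contig11377 (1.52 and 2.04).

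The spread between arrays of a group was not used to choose the members, and it was uneven. The median SD between the 2 arrays among members was 0.064 in the hexaploid wild type, 0.036 in type I and 0.096 in the diploid wild type, but 0.39 in type IV. Among all eligible probes the medians were 0.046, 0.033, 0.053 and 0.15. Probes raised in only 1 necrosis type also had a wide spread in type IV. The median there was 0.30 for those raised by at least 2 in type IV but by less than 1 in type I. It was 0.26 for those raised in type I but by less than 2 in type IV. The wider spread in type IV ran mostly one way. Relative to the median over all eligible probes, 168 members (85.7%) were higher on type IV array 2 than on array 1, with a median of 0.51 and quartiles of 0.29 and 0.68. The 902 probes raised by at least 2 in type IV but by less than 1 in type I had a median of 0.26, with 69.7% higher on array 2. The 594 probes raised in type I but by less than 2 in type IV had a median of 0.17, with 66.7% higher. Between the 2 type I arrays the members showed no such lean, with 49.0% higher on array 2 and a median of 0.00.

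The gap between the type IV arrays also varied with the type IV difference among the other eligible probes, rising up to differences of 2 to 3 and falling beyond. Among eligible probes with a type IV difference under -3, the median was -0.62 and 13% were higher on array 2. For differences of 0 to 1 the median was 0.09. In the range of 2 to 3 the 125 members had a median of 0.48 and the 539 other probes 0.31. From 3 to 4 the 45 members had 0.60 and the 212 others 0.21, and at 4 or more the 26 members had 0.49 and the 151 others 0.14. In each of these 3 ranges the members' median was the higher, as a description of these 2 arrays. With type IV array 1 alone the members' median difference from the diploid wild type was 2.48 and 159 of them reached 2. With array 2 alone it was 2.97 and 191 reached 2. Every member was above the diploid wild-type mean on each type IV array.

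**Figure D4:**
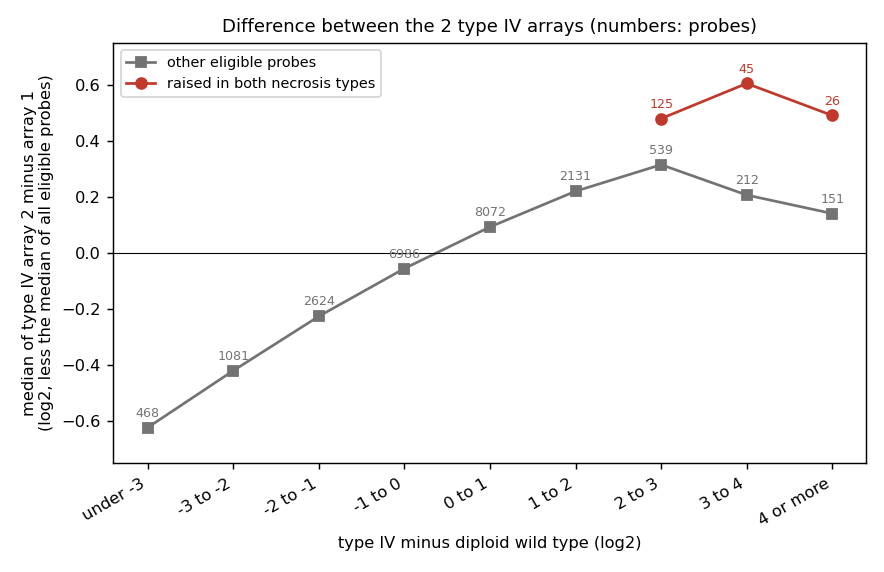
Median of type IV array 2 minus array 1 (log2, less the median of all eligible probes), by the type IV difference, with the number of probes at each point. The other eligible probes (grey) run from -0.62 among strongly lowered probes through 0 and peak at 0.31, and the members (red) lie at 0.48, 0.60 and 0.49.

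What the members share apart from their values can be read only from their names. Of the 196, 90 are named wheat0130Contig and 55 MUGEST2003, the 2 most common kinds of name on the array. These are 0.954% and 1.41% of the eligible probes of those kinds. The code whkv had the highest share of members of any code, with 9 of its 92 eligible probes (9.78%) among the members, against 0.873% of all eligible probes. Of the eligible whkv probes, 17.4% had a type I difference of at least 1, against 3.52% of all eligible probes. A type IV difference of at least 2 was seen for 13%, against 4.89%. The meaning of the code is not given in the files. Eligible whkv probes also included more that were lower in necrosis: 16.3% had a type I difference of -1 or less, against 8.24% of all eligible probes, and 12% a type IV difference of -2 or less, against 6.90%. The 9 whkv members had type I differences of 1.06 to 4.88, with a median of 1.83, and type IV differences of 2.11 to 7.11, with a median of 2.33. Of the 9, 3 were above background on no diploid wild-type array and 1 on no hexaploid wild-type array.

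Some members have a second probe on the array whose name points to the same clone or contig, differing by a leading r, by an ending p or m, or by an ending _2. What these marks stand for is not given in the files. There were 22 such members in 21 pairs of names. In 1 pair both probes are members. The probe rwhsd12e06_418 read -2.67 and -2.59 in the hexaploid wild type, -0.96 and -1.06 in type I, -4.94 and -5.14 in the diploid wild type (not well above background) and, on the necrotic diploid arrays, 1.08 and 1.58. Its pair whsd12e06_515 read -7.77 and -7.68, -6.17 and -5.78, -6.77 and -6.60, and -4.70 and -4.16 in the same order. The type I differences of the pair were close, at 1.62 and 1.75, and the type IV differences were 6.37 and 2.25. For whsd12e06_515 neither wild type was well above background, its bounds were 1.17-fold and 1.61-fold, and its type IV difference turned to -0.40 with normexp background correction.

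Of the 20 partner probes that are not members, 14 had a type I difference above 0 and 10 a type IV difference above 0. Over all eligible probes the medians were 0.08 and 0.01, so differences above 0 were at least as common as those below. Nothing about the pairs is read from these counts. The partners' type I differences ran from -1.05 to 1.91 with a median of 0.92, and their type IV differences from -2.20 to 2.34 with a median of 0.26. Of these partners, 9 were above background on all 4 necrosis arrays, a condition that favours probes raised in necrosis. Their type I differences ran from 0.05 to 1.85 with a median of 0.95, and their type IV differences from -0.02 to 2.34 with a median of 1.79. The highest type IV difference was that of rwhdp13h20_148, at 0.95 in type I and 2.34 in type IV. The lowest values of the 9 were those of whsc16h17_m_56, at 0.05 and -0.02, while the member whsc16h17_p_456 had 1.16 and 2.32. The other 11 partners were dim on at least 1 necrosis array, and 5 of these were above background on no array. Among the 11, 5 had a type I difference above 0 and 2 a type IV difference above 0, and 5 were at or below 0 in both. One of them, rwhe25g14, was above background on 5 arrays and had -0.02 in type I and -1.37 in type IV, against 1.48 and 2.34 for the member whe25g14.

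**Figure D5:**
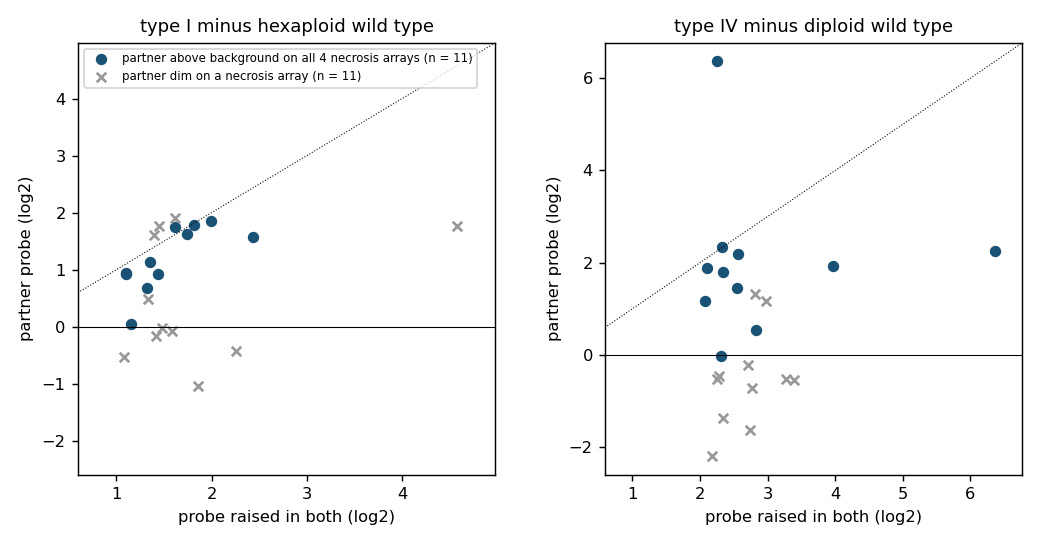
Type I (left) and type IV (right) log2 differences of members (horizontal axis) against the probe named for the same clone or contig (vertical axis). The pair in which both are members appears 2 times, dotted lines mark equal values, and crosses mark the 11 partners dim on a necrosis array, of which 9 lie below 0 in type IV.

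The size of the set depends on what is held equal between arrays. Scaled to the added spike-in controls instead of the 75th percentile, the median of all eligible probes moved to 0.48 in type I and 1.36 in type IV, and 1401 probes met the rule, among them all 196 members. Under the other scalings and normalizations all members kept higher means in necrosis, and the exception was normexp background correction. With it, 195 of the 196 had a type I difference above 0 and 178 had a type IV difference above 0, and the 18 that did not were all above background on no diploid wild-type array. The 132 members above background on both diploid wild-type arrays all kept a type IV difference above 0 with normexp, and 80 of them reached 2.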

How the data were processed

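Total RNA of 8 leaf samples was measured on 8 one-colour Agilent arrays. The deposited scanner files hold spot intensities, background-corrected by Agilent Feature Extraction (version 10.10.1.1 per the file headers, 9.5 per the submitters' processing notes). The authors' deposited value table holds the same processed intensities times 1 factor per array (0.926 to 3.12), linear and uncentred, and was used as an alternative.

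Levels here are log2 processed intensities less each array's 75th percentile over 37826 transcript probes. The 1417 control spots and 68 probes with an outlier flag were left out. Both comparisons were fitted with limma 3.58.1 in R 4.3.3 (4 group means, eBayes, Benjamini-Hochberg adjusted p under 0.05, two-sided). Probes well above background on both arrays of a group compared were used. The 4 groups shared 1 estimate of the spread per probe. The median SD over eligible probes was 0.033 in type I and 0.15 in type IV, so the shared estimate can be too large for type I and too small for type IV. The fit was tested on simulated data with equal spread in all groups, which does not cover this unevenness. Lower bounds of folds raise dim signals, per array, to the dimmest probe well above background. They hold only for the background correction of the processed intensities. The number of arrays limits the precision, and if the 2 arrays of a group share plants, p-values measure technical spread.

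Members, lists and named probes were chosen with earlier results of these data known. Named are the 12 members with the largest smaller difference, the 5 largest differences in each type, the 3 probes inside and outside each threshold, the 5 brightest in both wild types, and members of 1 clone. Gene lists matched no member, and apart from the cold and dehydration list they matched no probe. The normexp alternative was planned on mean signals and used median signals (offset 50), the ones in the files. Spike-in scaling used the 159 E1A control spots above background on all 8 arrays, a limit added after seeing the data. Same-numbered arrays did not deviate together (correlations of -0.05 and -0.01).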

Additional observations from a re-analysis of the deposited data

How the results depend on the processing

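The rule gave 196 probes. It gave 1401 with spike-in scaling (all 196 among them), 83 with normexp background correction (82 of the 196) and 125 when every array had to be above background. The normexp setting added an offset of 50 to each intensity, which by itself shrinks the folds of dim spots. The share of this offset in the normexp result was not tested. The spike-in scaling shifted all probes by 1 constant per array, and the last setting can only remove probes. The other planned settings gave 196 to 254 probes, and raising dim values to the lowest signal above background, chosen after seeing the data, gave 164. Leaving out 1 array at a time gave 176 to 236 probes, the lowest without type IV array 2 (159 of the 196) and the highest without type IV array 1 (191 of the 196). Fits with 1 array left out have 1 array in a group, so their calls are not counted here. With the array number as a replicate block, 183 of the 196 were called higher in type I and 194 in type IV, against 185 and 194 in the main fit. With each wheat fitted alone, 194 were called in type I and 194 in type IV. In the main fit 22.9% and 33.9% of all probes tested were called higher. The rule used these contrasts, so nothing about the members is read from these counts. With normexp background correction the type IV differences of MUGEST2003_23lib_Contig13877_801, rwhyf11h18 and whsd12e06_515 turned to -0.11, -0.13 and -0.40. No other value of the 27 named members turned in sign under the settings run. Differences that rest on a dim wild type also fell with normexp. The type IV difference of MUGEST2003_23lib_Contig19505_653 went from 11.50 to 7.33, and the type I difference of wheat0130Contig11892 from 3.37 to 1.46. The count of members higher on type IV array 2 than on array 1, relative to the median of the eligible probes, was 165 to 168. Scaling by 1 factor per array cannot change this count. Of the settings that could change it, quantile normalization gave 168 and normexp 165. Signal over background limits the folds of the 46 members seen on no diploid wild-type array.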
